A study of Mus musculus with 6 samples.

Results

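The expression of 10 NRF2 antioxidant and metallothionein genes was examined in the tibialis anterior (TA), a fast muscle of the lower hind limb, of aged mice. The members were chosen by name (Nfe2l2, Nqo1, Hmox1, Gclc, Gclm, Txnrd1, Srxn1, Prdx1, Mt1 and Mt2), all 10 were found among the 45777 genes of the count table, and all 10 passed the filter on low counts that left 16188 tested genes. RNA-seq of total RNA compared 3 libraries of vehicle-treated mice with 3 libraries of mice injected with BML-260, the small molecule used in the study to inhibit the phosphatase DUSP22, at 5 mg/kg for 1 month, by daily intraperitoneal injection. The labels give all mice as male C57BL/6J, aged 24 months by the labels (the text of the study gives somewhat older ages), with no allele named in the labels, and the control animals received the DMSO and Tween 80 vehicle alone. No young or untreated muscle was part of the comparison, and the compound was given to the whole animal.

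NRF2, the protein of Nfe2l2, is a transcription factor that KEAP1 marks for degradation in resting cells. When oxidants or electrophiles modify KEAP1, NRF2 builds up, pairs with a small MAF protein and binds antioxidant response elements (AREs) of genes for glutathione synthesis, quinone and heme breakdown, and the thioredoxin and peroxiredoxin systems. Metallothioneins are small cysteine-rich proteins that bind zinc and copper. Their genes are induced through metal response elements (MREs) by the zinc sensor MTF1, and also by glucocorticoids and by cytokines acting through STAT3, as in fasting, inflammation and muscle wasting.

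The summed TPM (a level scaled for transcript length and library total) of 8 muscle fiber markers lay between 88750 and 118200, and none of the 8 was at 0 in any library. Libraries held between 39522890 and 56998875 counts. Vehicle replicate 3 stood apart from the others: its Pearson correlations of log2 CPM across genes with the other libraries were 0.940 to 0.948, against 0.972 to 0.985 for all other pairs. It had the highest normalized count (count divided by the DESeq2 size factor of the library) in 32.3% of tested genes, and in 9 of the 10 members, Prdx1 being the exception. Results are therefore given with and without this library. A further split touches the strain label. C57BL/6J mice are known to carry a deletion in Nnt, the gene of a mitochondrial enzyme that supplies NADPH for glutathione reduction. The methods of the study name the aged and RNA-seq mice as C57BL/6, and mice of some other experiments as C57BL/6J. Its reagent list gives C57BL/6J, with a catalog identifier that names a Gpr37 allele. Nnt held 823.6 and 1007 normalized counts in replicate 1 of vehicle and of BML-260, against 4915 and 9767 in vehicle replicates 2 and 3 and 5740 and 4609 in BML-260 replicates 2 and 3. The libraries therefore did not share 1 level of Nnt, although the labels give 1 strain, and each group held 1 low and 2 higher libraries. The substrain of the mice was not tested further.

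Mt2 and Mt1 had the largest differences among the 10 genes, and Hmox1 was next. These 3 were lower with BML-260 at the fold threshold used here, a change of at least 1.3-fold with an unadjusted p under 0.05, which 5.75% of tested genes passed (4.86% as lower and 0.896% as higher). None of the 10 passed an adjusted p under 0.05 in the edgeR quasi-likelihood test with Benjamini-Hochberg adjustment (smallest adjusted p = 0.699), at which 0% of the tested genes were called. Limma voom also called 0 members. DESeq2 called 95 genes over the whole table and 0 members, but it set the p-values of Mt1 and Mt2 to missing. It therefore could not call these genes. At an unadjusted p under 0.05, 3 members and 5.97% of all tested genes were found. For Mt2, Mt1 and Hmox1 every BML-260 library lay below every vehicle library, as it did for 6.7% of the tested genes (the reverse held for 5.43%). The other 7 genes had overlapping groups and did not pass either threshold. Over the 10 genes, 8 log2 fold changes were below 0 (50.5% of all tested genes were), and their median was -0.35 against -0.0039 for all genes. The median of the members was -0.062 when vehicle replicate 3 was left out. Among the 4 libraries with higher Nnt, Mt2 (-4.70) and Mt1 (-3.86) passed the fold threshold, as 7.09% of genes tested there did, and Hmox1 did not (-0.91, SE 0.39, edgeR unadjusted p = 0.0573). In the replicate 1 pair, which has 1 library a group and no test, the log2 ratios of BML-260 over vehicle were -0.98 for Mt2, -0.33 for Mt1 and -0.59 for Hmox1.

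**Figure D1:**
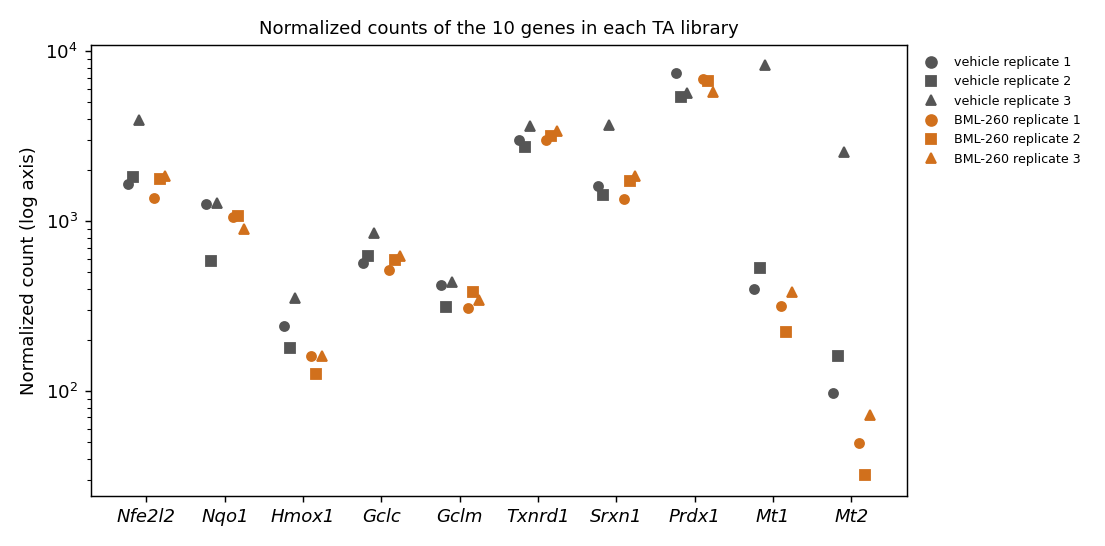
Normalized counts (log axis) of the 10 genes in each TA library, with 3 vehicle libraries in grey and 3 BML-260 libraries in orange, 1 point per library and 1 symbol per replicate number. Vehicle replicate 3 is the top point of 9 genes, and the groups are separate only for Hmox1, Mt1 and Mt2.

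The metallothionein genes Mt1 (gene ID 17748) and Mt2 (gene ID 17750) are neighbours on chromosome 8 of GRCm38.p6, Mt2 at chr8:94172618-94173567 and Mt1 at chr8:94178883-94180327, both on the plus strand with 5315 bases between them. Each has 3 exons in the GENCODE models, and their coding sequences of 183 bases matched at 145 positions (79.2%). The longest stretch that the pair of transcripts had in common was 20 bases, so longer reads could differ between them. A gene model on the opposite strand, Gm45774, overlaps Mt2, and whether reads were counted by strand is not given in the sources used here. The RefSeq promoters of both genes, 250 bases before to 50 bases after the annotated start in the GRCm38.p6 build, are shown because the pair moved together, with capitals for matches to the MRE letters TGCACNC or TGCGCNC and to the ARE letters TGACNNNGC on either strand. The coordinates are chr8:94178839-94179138 for Mt1 and chr8:94172368-94172667 for Mt2, both plus strand.
Mt1: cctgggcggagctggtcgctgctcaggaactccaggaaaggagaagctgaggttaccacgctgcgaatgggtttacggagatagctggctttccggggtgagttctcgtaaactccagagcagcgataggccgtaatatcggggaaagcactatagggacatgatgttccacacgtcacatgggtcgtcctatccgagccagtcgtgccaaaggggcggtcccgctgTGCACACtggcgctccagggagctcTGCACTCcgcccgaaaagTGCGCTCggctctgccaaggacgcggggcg
Mt2: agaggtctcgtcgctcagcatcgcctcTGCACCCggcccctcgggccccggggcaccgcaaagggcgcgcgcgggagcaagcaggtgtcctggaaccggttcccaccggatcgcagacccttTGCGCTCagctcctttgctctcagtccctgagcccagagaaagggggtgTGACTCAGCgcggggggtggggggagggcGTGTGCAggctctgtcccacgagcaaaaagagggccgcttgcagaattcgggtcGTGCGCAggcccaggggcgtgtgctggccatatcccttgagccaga
The Mt1 window held 3 MRE matches, which start 23 bases before and at positions 3 and 21 after the start of the promoter entry. That start lies downstream of the first base of the Mt1 gene interval given above, and all 3 matches lie inside this interval. The Mt2 window held 4, at 223, 128 and 50 bases before and at position 5 after it. Of 32851 RefSeq promoters of this length, 25.7% had at least 1 MRE match, 1.97% had at least 3 and 0.517% had at least 4. Mt2 also held 1 ARE match, tgactcagc, 79 bases before the start, which overlaps a match to the AP-1 letters TGACTCA. ARE letters were found in 12.4% of all promoters and AP-1 letters in 5.2%. These matches describe letters in the windows and do not show binding in muscle.

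The Mt2 libraries held 97.2, 160.1 and 2543 normalized counts in vehicle replicates 1, 2 and 3, and 49.3, 32 and 72.1 in BML-260 replicates 1, 2 and 3. The group means were 933.4 ± 1394 and 51.1 ± 20.1 (SD, n = 3 each), and the log2 fold change was -4.20 (SE 1.20, edgeR unadjusted p = 0.00752, adjusted p = 0.699). The groups did not overlap, but vehicle replicate 3 was far above the other 5 libraries. Without that library the log2 fold change was -1.34 (SE 0.37, edgeR unadjusted p = 0.00387, adjusted p = 0.429), so that the direction and the fold threshold held at a much smaller size.

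For Mt1, normalized counts were 398.4, 528.6 and 8289 in vehicle replicates 1, 2 and 3, and 317.2, 222 and 381.3 in BML-260 replicates 1, 2 and 3. The group means were 3072 ± 4519 and 306.8 ± 80.1 (SD, n = 3 each), with a log2 fold change of -3.32 (SE 1.08, edgeR unadjusted p = 0.0144, adjusted p = 0.733). The highest BML-260 library, replicate 3, lay just under the lowest vehicle library, replicate 1. The fold change fell to -0.60 (SE 0.23, edgeR unadjusted p = 0.0249, adjusted p = 0.928) without vehicle replicate 3. Mt1 missed the fold threshold without BML-260 replicate 2 (edgeR unadjusted p = 0.0574), with limma voom and quality weights (-1.05, unadjusted p = 0.0835 by limma), with limma on log2 TPM (unadjusted p = 0.0884 and 0.0697 with 1 and 0.1 added) and with the replicate number as a block (-1.93, edgeR unadjusted p = 0.0522). Mt2 passed with voom (-1.89) and with the block (-2.89), at smaller sizes. The coefficient of variation within the vehicle group was 147% for Mt1 and 149% for Mt2, against 26.1% and 39.4% in the BML-260 group.

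The summed TPM of Mt1 and Mt2 was 30.5, 39.0 and 942.2 in vehicle replicates 1, 2 and 3 and 21.2, 16.0 and 27.5 in BML-260 replicates 1, 2 and 3. The mean difference was -2.30 on the log2 scale (two-sided exact permutation p = 0.1, which is the smallest p that 3 against 3 libraries can give), and -0.71 without vehicle replicate 3 (exact permutation p = 0.2). The balance of the paralogs differed as well, since Mt2 was lower by more than Mt1. The ratio of Mt1 to Mt2 TPM was 3.97, 3.03 and 3.21 in the vehicle libraries and 6.47, 6.77 and 4.89 in the BML-260 libraries (3.41 ± 0.50 and 6.05 ± 1.01, SD, n = 3 each). The groups did not overlap (log2 difference 0.82, two-sided exact permutation p = 0.1, the smallest possible). Vehicle replicate 3 was within the range of the other vehicle libraries in this ratio, despite its level, and leaving out any 1 library gave log2 differences from 0.734 to 0.969. From normalized counts the difference was 0.81. Across the 6 libraries log2 CPM of Mt1 and Mt2 had a Pearson r of 0.989, a description in which vehicle replicate 3 is the far point.

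**Figure D2:**
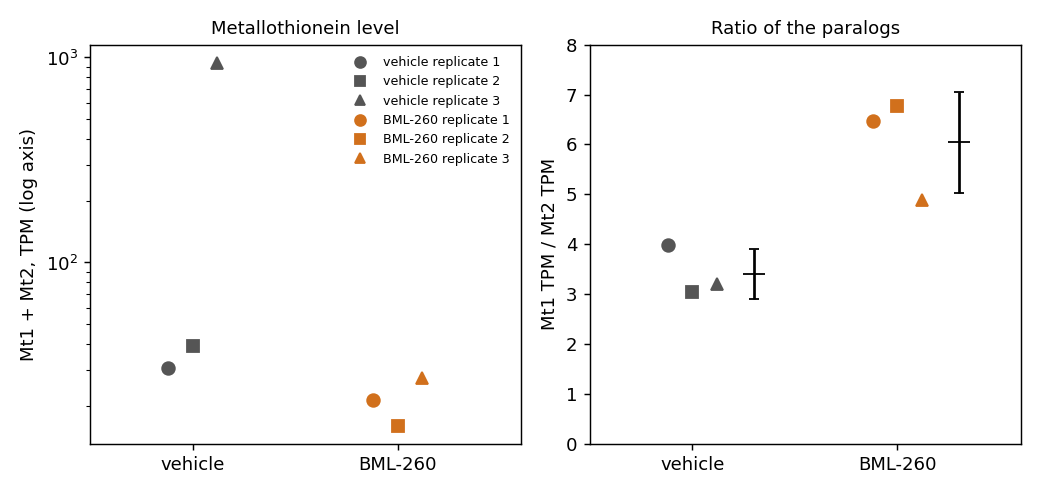
Left, summed TPM of Mt1 and Mt2 (log axis) in each of 3 vehicle and 3 BML-260 libraries; right, the ratio of Mt1 to Mt2 TPM with the mean and SD of each group as a bar beside the points. Vehicle replicate 3, at 942.2 TPM, is far above the rest on the left but lies at a ratio of 3.21 on the right, where vehicle libraries reach at most 3.97 and BML-260 libraries start at 4.89.

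Hmox1 (gene ID 15368, chr8:75093618-75100593) encodes the inducible heme oxygenase, which breaks heme down to biliverdin, iron and carbon monoxide and is abundant in macrophages that clear red cells. It held 241.2, 180.4 and 355.4 normalized counts in vehicle replicates 1, 2 and 3, and 160.7, 126 and 160.1 in BML-260 replicates 1, 2 and 3. The means were 259 ± 88.8 and 148.9 ± 19.9 (SD, n = 3 each), and the log2 fold change was -0.80 (SE 0.27, edgeR unadjusted p = 0.0168, adjusted p = 0.754). All BML-260 libraries were below the lowest vehicle library, replicate 2, by a small margin. Without vehicle replicate 3 the log2 fold change was -0.51 (SE 0.22, edgeR unadjusted p = 0.0443, adjusted p = 1). Without BML-260 replicate 2 the fold threshold was missed (edgeR unadjusted p = 0.0659). Hmox2, the constitutive heme oxygenase, had a log2 fold change of -0.11 (SE 0.14) and was named after its values were seen.

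Markers of several, but not all, other cell types moved with Hmox1 and with the metallothioneins. The summed TPM of 10 macrophage markers was 142.1, 142.2 and 598.6 in the vehicle libraries and 98.5, 85.4 and 106.8 in the BML-260 libraries, with none of the markers at 0 in any library. At the fold threshold 8 of these 10 were lower, as 4.86% of all tested genes were. Cd68 (log2 fold change 0.0018, SE 0.49) and Fcgr1 (-0.87, SE 0.59) did not pass. All 10 markers had their highest normalized count in vehicle replicate 3. Without that library 7 were lower, as 2.92% of all tested genes were. Among these 7 was Adgre1, which encodes the F4/80 antigen. Adgre1 held 352.7, 349.4 and 379.3 normalized counts with vehicle and 200.5, 116 and 194.3 with BML-260, so that vehicle replicate 3 did not stand apart there. The summed TPM of the 3 neutrophil markers with TPM values was 164.2, 23.6 and 799.1 with vehicle and 7.37, 6.68 and 11.9 with BML-260. All 4 tested neutrophil markers of 7 listed were lower at the fold threshold, also without vehicle replicate 3. Among these markers, Retnlg was at 0 in 2 libraries, both with BML-260. It passed the filter on low counts through the vehicle group, so its direction carries no weight. Of the 3 that were not tested, Ly6g and Camp were at 0 in 5 libraries and Ngp in 4. The 5 erythroid markers with TPM values, mostly hemoglobin genes, summed to 1949, 2128 and 8752 TPM with vehicle and to 1646, 1619 and 2162 with BML-260. Of 6 tested erythroid markers, 3 were lower at the fold threshold, and 2 without vehicle replicate 3. Schwann and adipocyte markers followed vehicle replicate 3 as well: all 6 Schwann markers and 4 of 5 tested adipocyte markers had their highest normalized count in it. Summed TPM was 22.9, 21.6 and 101.9 with vehicle and 31.3, 32.6 and 32.6 with BML-260 for the Schwann markers, and 293.1, 379.8 and 495.5 against 329.6, 329.1 and 366.4 for the adipocyte markers, of which Lep was at 0 in 1 library. With all libraries 0 Schwann markers and 1 adipocyte marker passed the fold threshold (lower, list medians -0.30 and -1.56). Of 6 tested markers each, 0 endothelial, 1 fibroblast and 1 satellite cell marker were lower at this threshold, and none was higher. The medians of these lists were 0.00065, -0.18 and -0.21. Without vehicle replicate 3 all 6 Schwann markers were higher in every BML-260 library, 2 of them at the fold threshold (median 0.58), and no adipocyte marker passed. Of all tested genes there, 18% had groups that did not overlap in either direction, and 9.3% were lower in this way. The fold threshold was passed there by 3.98% of tested genes, and by 2.92% as lower. In bulk muscle, fewer cells of a type and less RNA per cell cannot be told apart, and the part of these cells in the Hmox1, Mt1 and Mt2 values was not tested. The genes with log2 CPM most like Hmox1 over the 6 libraries were Siglece, Srgn and Nfam1 (Pearson r from 0.994 to 1.00), with 141 genes above an r of 0.95, and for Mt1 they were Slc7a1, Pla2g12a and Gas5 (r of 0.998 to 0.999), with 365 genes above 0.95. These likenesses share the libraries and are led by vehicle replicate 3.

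**Figure D3:**
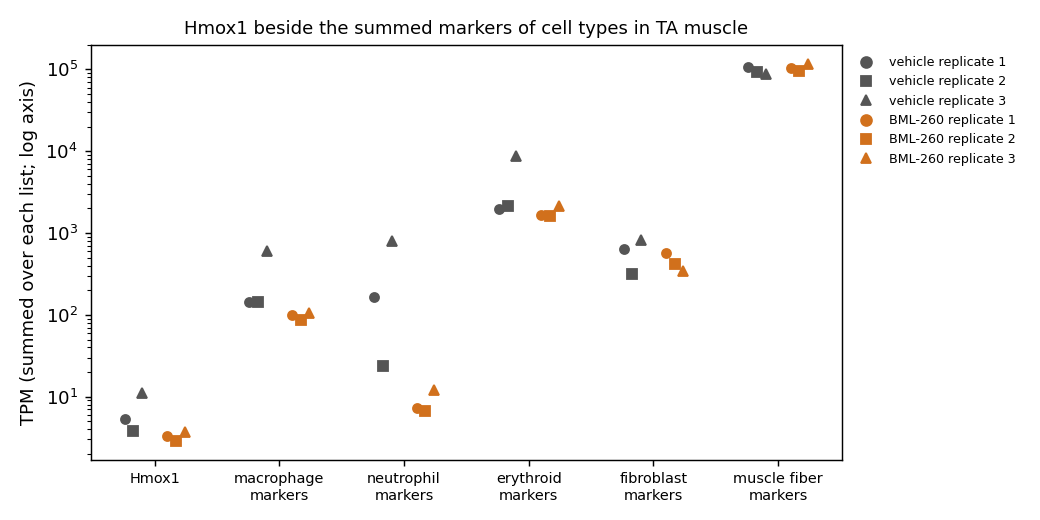
TPM of Hmox1 and summed TPM of 5 marker lists (log axis) in each library, 3 vehicle in grey and 3 BML-260 in orange, 1 symbol per replicate number. Hmox1 and the macrophage and neutrophil sums are lower in all BML-260 libraries than in any vehicle library, whereas muscle fiber markers overlap.

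Nfe2l2 (gene ID 18024, chr2:75675513-75704663), the gene of NRF2 itself, did not pass a threshold. Normalized counts were 1647, 1828 and 3932 in the vehicle libraries and 1371, 1769 and 1846 in the BML-260 libraries, giving 2469 ± 1270 and 1662 ± 255 (SD, n = 3 each). The log2 fold change was -0.57 (SE 0.32, edgeR adjusted p = 0.788). Vehicle replicates 1 and 2 lay within the range of the BML-260 group, and the log2 fold change without vehicle replicate 3 was -0.070. A small nuclear RNA gene model, Gm24996, overlaps Nfe2l2 on the same strand. In the RefSeq promoter of Nfe2l2 the ARE letters occurred as tgactccgc, 240 bases before the start.

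Srxn1 (gene ID 76650, chr2:152105524-152111376) encodes sulfiredoxin, which restores over-oxidized peroxiredoxins, and varied like Nfe2l2. It held 1621, 1421 and 3702 normalized counts with vehicle and 1350, 1717 and 1835 with BML-260, with a log2 fold change of -0.46 (SE 0.34, edgeR adjusted p = 0.788). Again only vehicle replicate 3 was outside the range of the other libraries by a wide margin, and the sign turned to 0.096 without it. The Pearson r of log2 CPM between Srxn1 and Nfe2l2 over the 6 libraries was 0.966, with vehicle replicate 3 as the far point.

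Nqo1 (gene ID 18104, chr8:107388225-107403205), whose product reduces quinones and which is widely read as an NRF2 target, had nearly equal group means. Normalized counts were 1255, 582 and 1279 in vehicle replicates 1, 2 and 3 and 1061, 1067 and 894.5 in the BML-260 libraries, with means of 1039 ± 396 and 1008 ± 98.0 (SD, n = 3 each). Here vehicle replicate 2 was the low library, and the BML-260 libraries lay inside the vehicle range. The log2 fold change was -0.047 (SE 0.27, edgeR adjusted p = 0.971), with a sign that turned under several alternatives, among them leaving out vehicle replicate 1 (0.116) or 3 (0.121). Nqo1 did not follow the metallothioneins across libraries (Pearson r with Mt1 of 0.290 and with Nfe2l2 of 0.262). Its nearest genes in log2 CPM were Ppp2r2d, Ehmt2 and Fgf10 (r of 0.989 to 0.991), with 45 genes above 0.95.

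Gclc (gene ID 14629, chr9:77754535-77794489) and Gclm (gene ID 14630, chr3:122245487-122267215) encode the catalytic and modifier subunits of glutamate-cysteine ligase, the rate-limiting enzyme of glutathione synthesis. Gclc held 568.1, 627.7 and 852.1 normalized counts with vehicle and 516.8, 591 and 628.1 with BML-260 (log2 fold change -0.24, SE 0.18, edgeR adjusted p = 0.79). Gclm held 419.4, 311.3 and 436.2 with vehicle and 307.7, 382 and 345.8 with BML-260 (log2 fold change -0.18, SE 0.18, edgeR adjusted p = 0.82). The groups overlapped for both subunits, and without vehicle replicate 3 the log2 fold changes were -0.053 and -0.093. Over the 6 libraries Gclc followed Nfe2l2 (Pearson r 0.985) more closely than Gclm did (r 0.620). The gene models Gm17494, on the opposite strand, and Gm6061, a processed pseudogene on the same strand, overlap Gclm.

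Txnrd1 (gene ID 50493, chr10:82833951-82897724) encodes the cytosolic thioredoxin reductase. It held 3023, 2737 and 3643 normalized counts with vehicle and 3017, 3192 and 3375 with BML-260, a log2 fold change of 0.026 (SE 0.15, edgeR adjusted p = 0.971). Eid3, a protein-coding gene, overlaps Txnrd1 on the same strand, and Gm38560 and Gm47073 do so on the opposite strand. Prdx1 (gene ID 18477, chr4:116685599-116700000) encodes peroxiredoxin 1, which reduces hydrogen peroxide, and held 7498, 5363 and 5684 normalized counts with vehicle and 6848, 6694 and 5781 with BML-260. Its log2 fold change was 0.056 (SE 0.17, edgeR adjusted p = 0.939). In both genes the BML-260 libraries lay inside the vehicle range, and both signs turned on the TPM scale, to -0.115 for Txnrd1 and -0.083 for Prdx1 with a pseudocount of 1, where the median of all genes was -0.098. Prdx1 was the only member with a negative Pearson r against Nfe2l2 (-0.553).

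**Figure D4:**
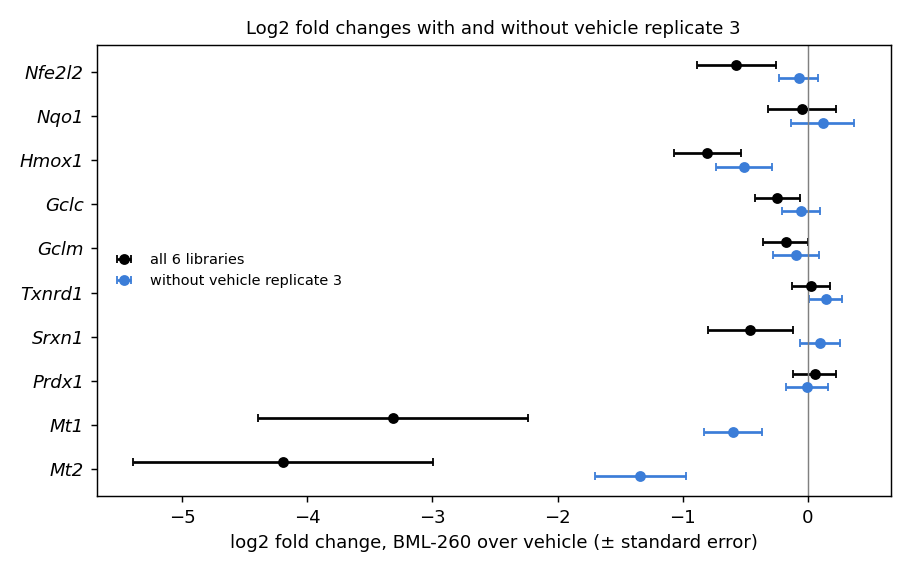
Log2 fold changes of the 10 genes, BML-260 over vehicle, from edgeR with their standard errors as bars, for all 6 libraries (black) and without vehicle replicate 3 (blue). Mt2 moves from -4.20 to -1.34, Mt1 from -3.32 to -0.60 and Hmox1 from -0.80 to -0.51. Mt2, Mt1 and Hmox1 each stay below 0 by more than the standard error in both fits. Srxn1 changes sign.

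On the TPM scale, which allows levels of different genes to be compared per length, Prdx1 was the highest member, with a median of 163.4 TPM over the 6 libraries (127.6 to 196.3). Txnrd1 followed at 32.6 (27.0 to 52.3), Nfe2l2 at 25.7 (18.0 to 81.5), Mt1 at 23.6 (13.96 to 718.4), Nqo1 at 23.5 (12.6 to 40.3) and Srxn1 at 21.3 (15.4 to 64.4). Prdx1 was above Txnrd1 in 6 of 6 libraries and Srxn1 above Gclm in 6 of 6. Among the genes from Nfe2l2 to Srxn1, neighbours in this order changed places between libraries, although Nfe2l2 was above Srxn1 in every library. Gclm (6.40, from 4.76 to 10.4), Gclc (6.18, from 4.80 to 12.1), Mt2 (5.39, from 2.06 to 223.9) and Hmox1 (3.75, from 2.88 to 11.0) formed the lower end, and Mt2 exceeded Hmox1 in 4 of 6 libraries. The order of the metallothioneins depended on the library: in vehicle replicate 3 Mt1 was the most abundant of the 10 genes and Mt2 the second.

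RefSeq promoters were at hand for 8 of the 10 members (10 entries, of which 3 are Txnrd1). Of these 8 members, 6 held ARE letters in at least 1 entry, Txnrd1 only in its second. The share over all 32851 promoters was 12.4%, counted by entry and not by gene. Because the members were chosen as NRF2 targets, the count of members is given as a description. Beside Nfe2l2 and Mt2, the matches are shown in their motif direction with the fixed letters in capitals, to allow the variable bases to be compared.
Gclm: TGACggtGC
Txnrd1: TGACaaaGC
Srxn1: TGACctaGC
Prdx1: TGACtcaGC
They start 134, 92 and 133 bases before the annotated start in Gclm, in the second Txnrd1 promoter and in Prdx1, and 29 bases after it in Srxn1. The Prdx1 match overlaps AP-1 letters, like that of Mt2. The windows of Nqo1 and Mt1 held no ARE letters, and MRE letters occurred in Gclm (3 matches) and Srxn1 (1 match) beside Mt1 and Mt2.

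The remaining genes of the pathways were read from lists. Of all tested genes, 4.86% were lower and 0.896% higher at the fold threshold. Without vehicle replicate 3, 2.92% were lower. Of 16 NRF2 regulators and partners, 1 was lower at the fold threshold and none higher (median log2 fold change 0.037). This was Maff, a small MAF partner (-1.10, SE 0.46, edgeR unadjusted p = 0.0444), which no longer passed without vehicle replicate 3. The related Mafk (-0.87, SE 0.44) and the repressor gene Bach2 (-0.42, SE 0.23) did not pass. Keap1, named after its values were seen, had a log2 fold change of 0.073 (SE 0.16).

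Of 34 further NRF2 targets, 31 were tested. At the fold threshold 4 were lower and 2 higher (median -0.14), as 4.86% and 0.896% of all tested genes were. Without vehicle replicate 3, 1 was lower, Fth1 (-0.58, SE 0.17, edgeR unadjusted p = 0.00649), and none higher. With all libraries both ferritin subunits were among the lower genes. Fth1, the ferritin heavy chain, held 30880, 43300 and 39640 normalized counts with vehicle and 27440, 22650 and 24430 with BML-260 (-0.61, SE 0.20, edgeR unadjusted p = 0.0141, adjusted p = 0.733), and the highest vehicle library was replicate 2. Ftl1, the light chain, was at -0.61 (SE 0.25) and Pgd, an enzyme of the pentose phosphate pathway, at -0.54 (SE 0.22); these were named after their values were seen. Txn1, the thioredoxin gene, was at -0.43 (SE 0.17, edgeR unadjusted p = 0.0343). Ftl1, Pgd and Txn1 no longer passed without vehicle replicate 3. Ephx1, the microsomal epoxide hydrolase, was higher with BML-260 in all libraries (480.4, 432 and 416.7 against 585.1, 541 and 635.4 normalized counts; 0.40, SE 0.15, edgeR unadjusted p = 0.0233), and Me1, malic enzyme, named after its values were seen, was also higher at 0.53 (SE 0.22). Both calls were lost without vehicle replicate 3, Ephx1 at 0.36 (SE 0.15, edgeR unadjusted p = 0.0398), under the fold of 1.3, and Me1 at 0.41 (SE 0.20, edgeR unadjusted p = 0.0677).

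Of 32 other antioxidant enzymes, 1 was lower and 1 higher (median 0.086), beside 4.86% and 0.896% of all tested genes. Gpx1, the abundant glutathione peroxidase, was lower in all BML-260 libraries (2359, 2714 and 2614 normalized counts with vehicle against 2245, 1628 and 1685; -0.47, SE 0.16, edgeR unadjusted p = 0.0201, adjusted p = 0.782). The muscle selenoprotein gene Selenow was higher (0.40, SE 0.17, edgeR unadjusted p = 0.0483), but did not pass without vehicle replicate 3 (0.35, SE 0.16, edgeR unadjusted p = 0.0601). There 1 enzyme was lower, Gpx1 (-0.46, SE 0.16, edgeR unadjusted p = 0.0167), and none higher. Sesn1 (-1.67, SE 0.75), a sestrin gene, did not pass, and held 8503 normalized counts in vehicle replicate 3 against 871.2 to 1262 in the other libraries.

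For the metallothioneins, 28 genes of zinc and copper handling were listed and 25 tested. Of these, none was higher (median 0.022) and 1 was lower, as 4.86% of all tested genes were. This was Slc39a14, the zinc importer ZIP14, with 804.5, 636.6 and 3400 normalized counts with vehicle and 551.4, 578 and 562.1 with BML-260 (-1.52, SE 0.56, edgeR unadjusted p = 0.0263, adjusted p = 0.788). The groups did not overlap, but the threshold was missed without vehicle replicate 3. The zinc carriers Slc39a8 (-0.56, SE 0.35) and Slc39a3 (0.37, SE 0.26) did not pass. Named after their values were seen, Mtf1 was at 0.13 (SE 0.14), and the zinc exporter Slc30a1, another MTF1 target, at -0.22 (SE 0.21).

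In heme and iron handling, 1 of 19 tested genes was lower, beside 4.86% of all tested genes, and none was higher (median 0.12). The lower gene was Hp, the plasma haptoglobin gene (-3.22, SE 1.14, edgeR unadjusted p = 0.021). Hp overlapped between groups and did not pass without vehicle replicate 3. Aco1 (0.22, SE 0.16) and Steap3 (0.39, SE 0.28) did not pass. Among 16 glucocorticoid-inducible genes 15 had a log2 fold change below 0 (median -0.26), beside 50.5% of all tested genes. Only Foxo1 was lower at the fold threshold (-0.92, SE 0.34, edgeR unadjusted p = 0.0251), while Ddit4 (-1.18, SE 0.53) and Klf15 (-0.58, SE 0.26) did not pass. Without vehicle replicate 3 none passed and 8 of 16 were below 0. Of 15 tested acute phase and STAT3 genes, 10 were lower at the fold threshold, as 4.86% of all tested genes were, and none higher (median -1.10). Without vehicle replicate 3, 5 were lower (median -0.64), as 2.92% of all tested genes were. Osmr, the oncostatin M receptor gene, held 1054, 857.7 and 1470 normalized counts with vehicle and 654.2, 633 and 565.8 with BML-260 (-0.87, SE 0.20, edgeR unadjusted p = 0.00225, adjusted p = 0.598). The acute phase genes Orm1 and Orm2, similar copies whose reads may have been split, were at 0 in 2 of the 3 BML-260 libraries, with at most 6.11 normalized counts in the other one, against 14.3 to 199 with vehicle. Both passed the filter on low counts only through the vehicle group. Their direction was therefore fixed by the filter, and they add no weight to the count of 10.

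**Figure D5:**
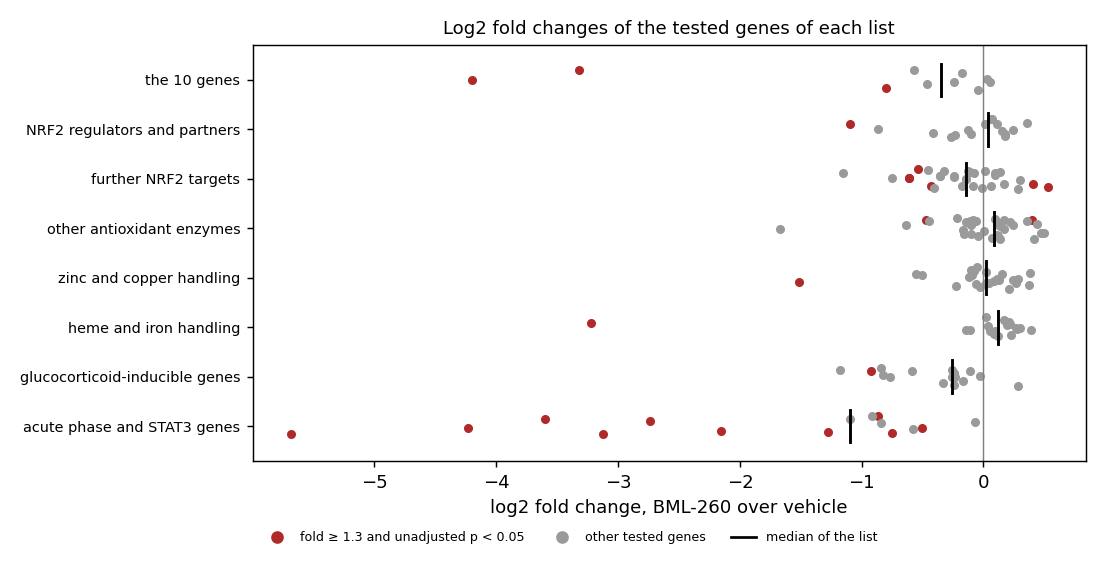
Log2 fold changes, BML-260 over vehicle, of the tested genes of each list, 1 point per gene, red where the change is at least 1.3-fold with an unadjusted p under 0.05, with the median of each list as a black bar. The median of the 10 genes is -0.35. The medians of the NRF2 regulators, further NRF2 targets, other antioxidant, zinc and iron lists lie between -0.14 and 0.12. That of the glucocorticoid-inducible genes is -0.26, and that of the acute phase and STAT3 genes -1.10.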

How the data were processed

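RNA-seq libraries were made from total RNA of TA muscle with a stranded kit. Per the submitters' processing notes, Bowtie2 2.3.4.1, Trimmomatic 0.38, StringTie 2.1.3b, HISAT2 2.1.0 and mm10 were used. The authors deposited raw read counts per gene for all 6 libraries in 1 table, and TPM values per library for 16800 genes. The annotation version, strand setting and handling of multi-mapped reads are not given in the sources used here, so reads of overlapping or similar genes may have been split.

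Counts were tested in R 4.3.3 with edgeR 4.0.16 (filterByExpr, TMM, quasi-likelihood F-test, Benjamini-Hochberg adjustment). The standard error was the size of the log2 fold change divided by the square root of F. Normalized counts are counts over size factors of DESeq2 1.42.0, and CPM are counts scaled to the library total multiplied by its TMM factor. Single values were compared by two-sided exact permutation over the 10 splits of 6 libraries. The replicates are 3 labelled samples a group, which the study calls biological replicates, although the labels tie no library to a mouse.

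All 10 members were named, with the 3 genes of smallest unadjusted p in each list, and the 3 genes most correlated with Mt1, Hmox1 and Nqo1. Other genes were named after their values were seen. The members and lists were chosen with earlier results of these data known. Alternatives were RLE scaling, a minimum of 10 counts per library, no filter, the replicate number as a block, DESeq2's Wald test and apeglm 1.24.0, limma 3.58.1 (voom with quality weights, and a trend fit on log2 TPM, with 1 or 0.1 added), and leaving out each library. The list counts without vehicle replicate 3 and the fit on the 4 libraries with higher Nnt were added after the values were seen. Promoters (RefSeq, GRCm38.p6) were searched on both strands. The fits were tested on simulated data. Figures were drawn with matplotlib 3.10.9.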

Additional observations from a re-analysis of the deposited data

How the results depend on the processing

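No member passed an adjusted p under 0.05 under any of the 15 alternatives. Genes at that threshold numbered 0 in edgeR with all libraries, 1 with no filter, 1 with at least 10 counts in every library, 1 with limma voom, 95 with DESeq2's Wald test and 95 with apeglm, and 0 to 9 when 1 library was left out (9 without vehicle replicate 1, 6 without vehicle replicate 3). Genes at the fold threshold numbered 931, with 1416 with no filter, 113 with apeglm, 503 on log2(TPM + 1), and 503 (without BML-260 replicate 2) to 2223 (without vehicle replicate 1) when 1 library was left out. The lower genes were 786 of 931, but 635 of 890 with voom and 1388 of 2223 without vehicle replicate 1. Members at the fold threshold numbered 3, but 1 with DESeq2's Wald test and 0 with apeglm. When 1 library was left out they numbered 1 (without BML-260 replicate 2) to 4 (without vehicle replicate 1, where Nfe2l2 also passed). Of all tested genes, 5.75% passed with all libraries, 6.31% with DESeq2's Wald test and 0.698% with apeglm. The share was 3% without BML-260 replicate 2 and 13.3% without vehicle replicate 1. DESeq2 set the p-values of Mt1 and Mt2 to missing as count outliers, which lowers its number of members. The cause of the other differences was not tested.

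Hmox1 and Mt2 passed the fold threshold under 13 of these 15 alternatives each and Mt1 under 8, all with the same direction throughout. Leaving out 1 library gave log2 fold changes of -4.73 to -1.34 for Mt2, -3.84 to -0.60 for Mt1 and -1 to -0.51 for Hmox1, and a member median of -0.515 to -0.062. The summed Mt1 and Mt2 TPM gave -3.19 to -0.711. Signs turned for Nqo1 (-0.33 to 0.121 when 1 library was left out, with 0.27 with voom, 0.116 without vehicle replicate 1, 0.121 without vehicle replicate 3, 0.030 without BML-260 replicate 3, 0.077 in the 4 libraries with higher Nnt), Srxn1 (-0.70 to 0.096, the latter without vehicle replicate 3), Txnrd1 (-0.115 and -0.117 on log2 TPM with a pseudocount of 1 and 0.1, -0.059 without vehicle replicate 2, -0.019 without BML-260 replicate 3, and up to 0.143 without vehicle replicate 3) and Prdx1 (-0.083 with either pseudocount, -0.033 without vehicle replicate 2, -0.0052 without vehicle replicate 3, and up to 0.222 without vehicle replicate 1). On log2 TPM the median of all genes was -0.098 and -0.139.

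The deviations of same-numbered libraries had correlations of 0.162, 0.0541 and 0.11, not all above 0.1, so the numbers were not taken as a pairing. Each library nevertheless correlated best with its own number, and both replicate 1 libraries had low Nnt, a hint from the data and not the design. With a replicate block, 1057 genes (6.53% of those tested) passed the fold threshold, 731 of them lower, and 0 passed an adjusted p under 0.05. There 2 members passed the fold threshold, the member median was -0.28 and Nqo1 turned to 0.027.

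With 3 libraries a group and 1 vehicle library far from the others, the spread is large, and exact tests cannot give a p under 0.1. The lowest raw count behind a named difference among the members was 32, for Mt2.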
